A study of Glycine max with 30 samples.

Results

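In 8-day-old soybean seedlings, the places of 2 histone marks were set against each other: 52891 peaks of histone H3 trimethylated at lysine 4 (H3K4me3) and 18723 islands of histone H3 trimethylated at lysine 27 (H3K27me3), each measured by chromatin immunoprecipitation and sequencing (ChIP-seq). They are the seedling members of 231124 peaks and 83902 islands kept over 5 stages. All material was cultivar Williams 82 of Glycine max, with no transgene or treatment in the labels, and seedlings were collected 8 days after sowing. Chromatin of 2 replicates was precipitated with antibodies to H3K4me3, to H3K27me3 and, for the control, to H3 itself, which makes 6 of the 30 samples. The 4 embryo stages shown for comparison were cotyledon-stage embryos (seed length 2.5 to 3.5 mm), early maturation (6 to 7 mm), mid-maturation (seed weight 200 to 250 mg) and late maturation (yellow seeds, 230 to 500 mg). Late maturation embryos were crosslinked frozen and ground, on ice for 15 minutes, unlike all other tissues.

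The authors gave 1 list per stage and mark for both replicates. Spread between replicates was therefore not measurable, no difference was tested, and the 95% intervals below cover counting error only. The lists name no genes and the labels name no genome build, so the tissue could not be checked against marker genes. A list made from whole seedlings cannot tell both marks on the same chromatin from each mark in different cells.

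H3K4me3 is set in plants by Trithorax-type methyltransferases around the starts of transcribed genes. H3K27me3 is set by the Polycomb repressive complex PRC2, and in plants it commonly covers whole silenced genes, many of them regulators of development. Places that carry both marks, often called bivalent, are known from genes held between silence and activity.

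The peaks were sorted by place. A peak was inside when it lay wholly in an island and over 500 bp from both ends, at the border when any of it came within 500 bp of an island end on either side, and outside otherwise. The 5% of deposited islands with the lowest ratio of ChIP to control reads, 985 of 19708, were left out first. At that limit, 2 kept islands and 1 dropped island had the same ratio of 0.784. The dropped islands included all 310 with a false discovery rate above 0.05, and 388 of them (39.4%, 36.4 to 42.5) overlapped a peak. The kept islands held 9997555 ChIP and 6298899 control reads, or 123 and 77.5 reads per kb.

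Most seedling H3K4me3 lay away from H3K27me3. Outside peaks numbered 41261, or 78.0% (95% Wilson interval 77.7 to 78.4). Inside peaks numbered 6329, or 12.0% (11.7 to 12.2), and border peaks 5301, or 10.0% (9.77 to 10.3). In bases, 7.23 Mb were under both marks, which was 14.7% of all H3K4me3 bases and 8.90% of all island bases. The islands covered 8.55% of the spanned length of the 20 chromosomes, less than the 14.7% of H3K4me3 bases that lay in them. Both lists were denser toward chromosome ends, so the whole span is a rough measure to compare with. With chromosomes cut into 10 stretches of equal length, stretch 1 held 10784 peaks and 3458 islands, and stretch 6 held 1502 and 560. Whether peaks prefer islands beyond this shared position was not tested.

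The shares varied little from chromosome to chromosome. Inside peaks made up from 10.4% on chromosome 20 to 13.2% on chromosome 12, and border peaks from 8.76% on chromosome 8 to 11.7% on chromosome 14. Islands covered from 6.41% of the span of chromosome 1 to 12.0% of that of chromosome 13. Along the chromosomes, cut into 10 stretches of equal length, inside peaks were 9.05% in stretch 6, near the middle, and 13.8% in stretch 9. Peak numbers fell from 10784 in stretch 1 to 1502 in stretch 6, so the middle rests on far fewer peaks.

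The seedling shares were set beside those of the embryo stages, sorted by the same steps, but the deposited lists did not share 1 calling limit. Deposited islands reached a false discovery rate of 0.491 in seedlings and 0.498 at late maturation, and stayed under 0.05 at the other stages. After the drop, no kept island of any stage was above 0.05. Inside peaks were 12.4% at the cotyledon stage and, through early, mid- and late maturation, 10.3%, 11.9% and 10.8%. Border peaks were 9.18%, 6.74%, 7.19% and 6.98% in the same order, all below the 10.0% of seedlings. Islands with a peak were 31.2%, 38.0%, 41.6% and 32.5%, against 42.2% in seedlings. The seedling list held 5145 peaks under 200 bp. With these left out at every stage, islands with a peak were 39.1% in seedlings and 41.2% at mid-maturation, so that order turned, while border peaks were still most frequent in seedlings (10.0%, against 9.22% at the cotyledon stage, the next highest). Border shares also depend on the number of island ends. Kept islands numbered 18723 in seedlings, 20364 at the cotyledon stage and 13448, 14889 and 16478 through early, mid- and late maturation. The part of these numbers in the border shares was not tested. Median island width was 3000 bp in seedlings, and 27.4% of the kept seedling islands were under 2 kb.

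Peaks inside islands were short and weak. Their median width was 437 bp (425 to 452), against 740 bp (723 to 757) at the border and 1002 bp (997 to 1007) outside. The middle 50% of widths ran from 230 to 753 bp inside and from 595 to 1295 bp outside, so the groups overlapped. On all 20 chromosomes the inside median was the smaller one, with 369 to 485 bp inside and 944 to 1036 bp outside. Peaks under 200 bp were 19.7% of the inside peaks, 9.53% of the border peaks and 8.23% of the outside peaks.

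The sorting itself favours short peaks inside, since a long peak more often reaches an end. Sorted by their midpoint alone, inside peaks had a median width of 550 bp, still under the outside median of 1002 bp. Among the 50% of peaks with the higher scores, however, the widths nearly met, with 1160 bp inside and 1175 bp outside.

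The score of a peak is the authors' own value, with a meaning that is not stated, and it serves here to rank peaks within the seedling list. The median score was 11.8 (11.3 to 12.1) inside, 30.1 (28.8 to 31.9) at the border and 82.1 (81.2 to 83.2) outside. Ranked by score and cut into 10 groups of equal size, inside peaks made up 26.3% (25.2 to 27.5) of the weakest group, 25.5% of group 3, 12.2% of group 5 and 2.57% of group 7. In the strongest group there were 4 inside peaks of 5289, or 0.0756% (0.0294 to 0.194). The share fell at each step from group 1 to group 10, but over groups 1 to 3 by little and with overlapping intervals.

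Border peaks did not follow the same course. They made up 10.1% of the weakest group, rose to 17.5% in group 4, whose scores ran from 18.7 to 36.1, and fell to 1.63% of the strongest group. In groups 1 to 4 inside peaks outnumbered border peaks, and from group 5 on border peaks outnumbered inside peaks. Outside peaks were 58.9% of group 3, their lowest share, and 98.3% of group 10.

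**Figure D1:**
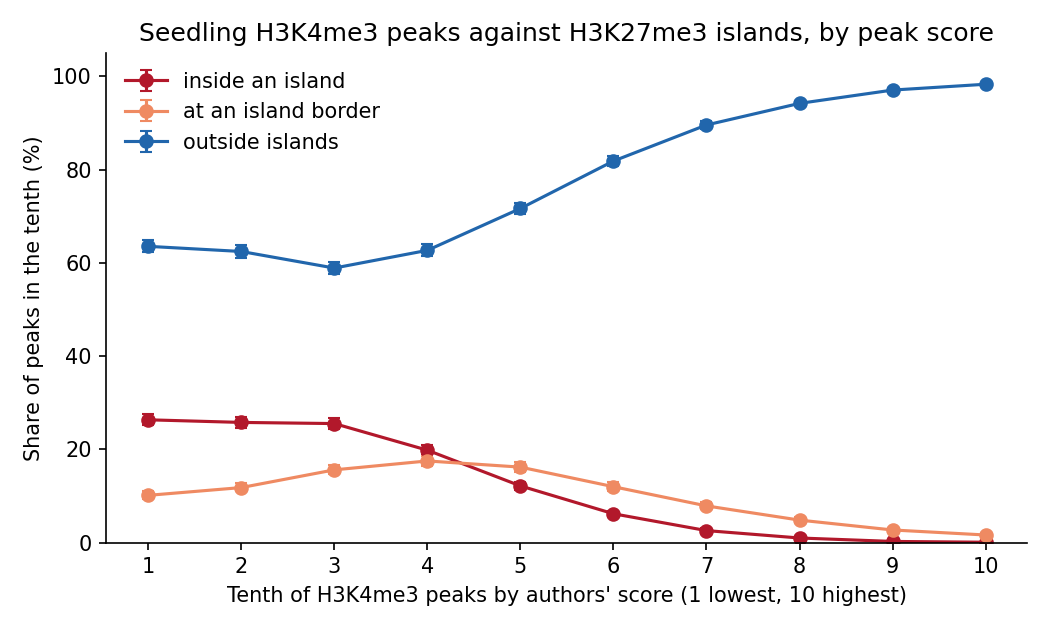
Share of seedling H3K4me3 peaks inside, at the border of and outside H3K27me3 islands (y axis, percent, with 95% Wilson intervals) in 10 groups of equal size by the authors' score (x axis, weakest to strongest). Inside peaks fall from 26.3% to 0.0756%, and border peaks are most frequent in group 4 with 17.5%.

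The lower scores inside were seen also among peaks of like width, by little in narrow peaks and by more in wide ones. Among peaks of up to 200 bp the median score was 5.12 (5.02 to 5.41) inside and 5.42 (5.35 to 5.44) outside. Over 200 and up to 400 bp it was 7.55 (7.12 to 7.68) inside, 8.37 (7.80 to 8.88) at the border and 8.06 (7.80 to 8.31) outside. Among those over 400 and up to 800 bp it was 17.0 inside, 22.7 at the border and 29.3 outside. At 800 to 1200 bp, the most common width, it was 34.6 (33.1 to 37.4) inside, 56.6 (53.8 to 59.9) at the border and 103 (102 to 104) outside. The order of inside, border and outside held in every width class above 400 bp, though over 2400 bp only 32 inside peaks were left and the intervals of inside and border peaks overlapped.

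**Figure D2:**
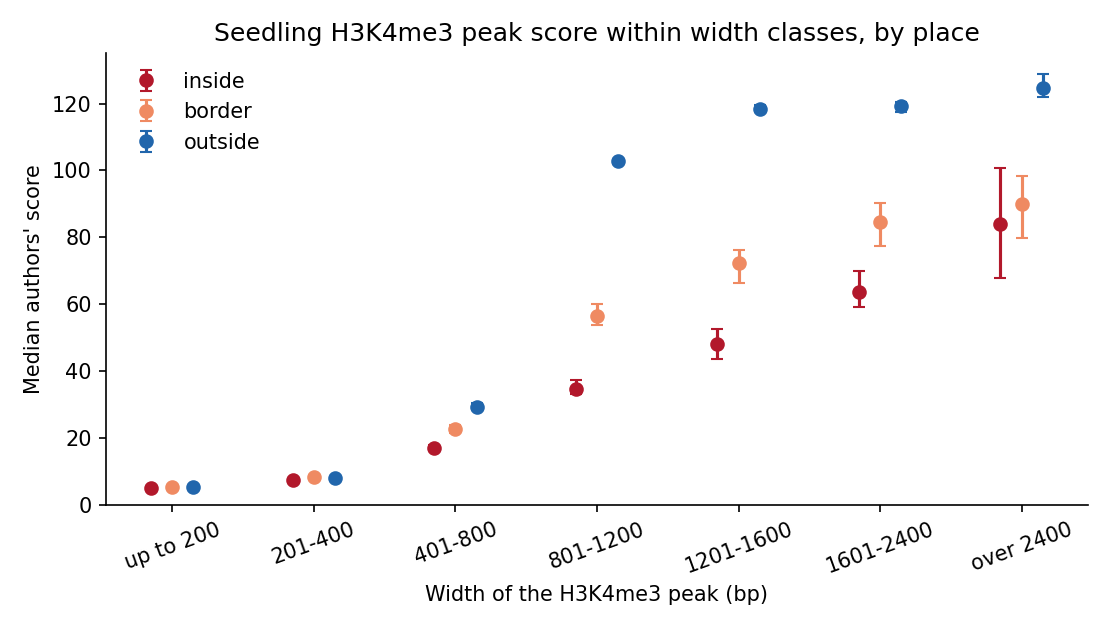
Median authors' score of seedling H3K4me3 peaks (y axis, with 95% order-statistic intervals) in classes of peak width (x axis, bp), by place against H3K27me3 islands. The medians lie close together up to 400 bp, with 7.55 inside and 8.06 outside from 200 to 400 bp, and farther apart above it, with 34.6 inside and 103 outside at 800 to 1200 bp.

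The border class held peaks of different kinds. Within an island, close to its end, lay 3094 peaks (58.4% of the border class), with a median width of 593 bp and a median score of 18.7. Across 1 end lay 1571 peaks (29.6%), with 958 bp and 54.8. Outside, but within 500 bp of an end, were 408 peaks (7.70%), with 840 bp and 55.6. Over a whole island stretched 227 peaks (4.28%), the widest of these kinds with a median of 1208 bp and a score of 86.7, and 1 peak reached more than 1 island.

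Within islands, peaks close to an end were wider and stronger than deeper ones. The sorting itself favours wide peaks there, since a wide peak more often comes within 500 bp of an end. Of the kept islands, 1892 were too narrow for any inside peak. Just past the limit, over 500 and up to 1000 bp from an end, the 1616 peaks within islands had a median width of 452 bp and a median score of 12.3. Over 2000 bp from both ends, 2757 peaks had 433 bp and 11.5. On the outer side of the limit, the 987 peaks over 500 and up to 1000 bp beyond an end had 953 bp and a score of 77.1.

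Coverage by H3K4me3 peaks changed steeply at island ends. At 300 to 400 bp inside the end, 12.0% of bases were in a peak, and at 300 to 400 bp outside it 1.42% were, a ratio of 8.43. Coverage rose again farther out, to 8.74% at 5 kb, where only ends facing a long enough gap were counted, 20686 of 37444. Farther inside it fell to 6.76% at 5 kb, where only the ends of islands wide enough to reach that far were counted, 3076 of 37446.

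Strong and weak peaks had different profiles. Peaks of the lower 50% of scores covered 7.91% of bases at 400 to 500 bp inside the end and 1.98% at 5 kb outside. Those of the upper 50% covered 4.15% at 200 to 300 bp inside and 6.76% at 5 kb outside. Both had their lowest coverage at 300 to 400 bp outside, 0.534% for the weaker and 0.885% for the stronger peaks. A dip just outside the end stood in every embryo list too. The ratio of the highest inner to the lowest outer bin of each list was 1.87 for cotyledon-stage embryos. It was 1.47, 3.85 and 4.45 for early, mid- and late maturation. The difference of these ratios from the 8.43 of seedlings was not tested.

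**Figure D3:**
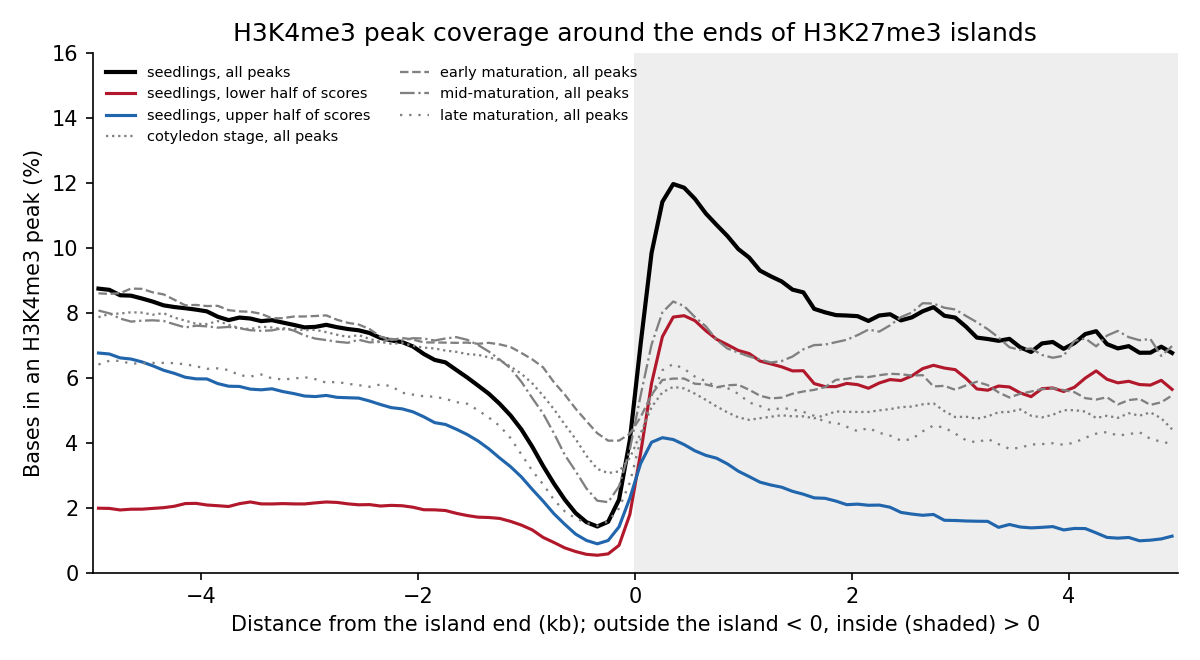
Percent of bases in an H3K4me3 peak (y axis) by distance from the ends of H3K27me3 islands (x axis, kb, in bins of 100 bp, outside below 0 and inside shaded) for all seedling peaks, those of the lower and upper 50% of scores, and all peaks of the 4 embryo stages. Seedling coverage goes from 1.42% outside the end to 12.0% inside it.

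Peaks near island ends were counted for each end. Of 13597 islands of at least 2 kb, 2768 (20.4%) had a peak within 500 bp of 1 end and 285 (2.10%) had them at both. Taken by end, 12.0% of the lower-coordinate and 12.5% of the higher-coordinate ends had a peak, so neither side was preferred by much. With shares this low, few islands would have peaks at both ends even if the ends were unrelated. Whether 2.10% departs from that was not tested. The lists give no strand.

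Short gaps between islands rarely held a peak of their own. The shortest gap was 800 bp, since the authors' island caller joined windows up to 600 bp apart. Of 2428 gaps of up to 1000 bp, 5 (0.206%, 0.0880 to 0.481) held a peak that touched neither island. The share was 4.19% for gaps of 2 to 3 kb, 10.8% for 3 to 5 kb and 36.0% (34.0 to 38.2) for 5 to 10 kb. A short gap has less room for a whole peak, which limits these shares and the number per length alike (0.0235 peaks per 10 kb in gaps of up to 1000 bp and 0.631 in those of 5 to 10 kb).

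Outside peaks lay a median of 14931 bp from the nearest island (14702 to 15183), with the middle 50% between 6236 and 32843 bp. Only 987 of them (2.40%) lay within 1000 bp, and 6109 (14.8%) lay over 50 kb away. Their median widths hardly changed with distance, from 953 bp within 1000 bp to 1012 bp at 10 to 50 kb. Another 110 peaks lay on scaffolds, which hold no island, and are counted as outside without a distance. The median distance was 11816 bp in stretch 1 of the chromosomes and 39475 bp in stretch 6.

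Of the 18723 islands, 7910 (42.2%, 41.5 to 43.0) overlapped a peak. Of these, 5582 had 1 peak, 1669 had 2, 460 had 3, 132 had 4, 35 had 5 and 32 had 6 or more. The mean was 0.599 peaks per island. Islands with a peak were wider, with a median of 3800 bp against 2600 bp without one, and the median width rose from 3200 bp with 1 peak to 5400 bp with 2, 7600 bp with 3 and 20200 bp with 6 or more.

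Wide islands more often had a peak but held fewer per length. A peak was found in 31.4% of islands under 1 kb, 32.7% of those of 1 to 2 kb, 37.3% of those of 2 to 5 kb, 54.6% of those of 5 to 10 kb and 70.2% of those of 10 kb and over. Peaks per 10 kb of island fell from 4.86 to 2.58, 1.55, 1.21 and 0.968 in the same order. An island under 1 kb needs few bases of a peak that crosses it to be counted.

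H3K27me3 enrichment was measured as ChIP reads over control reads per island, without scaling. The authors' fold over control is this ratio times 1.71 throughout the list. The median ratio was 1.49 (1.47 to 1.51) in islands with a peak and 1.34 (1.33 to 1.35) in those without, higher by a factor of 1.11. The same direction stood on 20 of 20 chromosomes. Islands with peaks inside them had 1.67 (1.65 to 1.68), and islands with border peaks alone had 1.28 (1.26 to 1.29), below the islands without a peak. The former had a median width of 6200 bp and the latter of 2000 bp.

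Within classes of width the difference changed its direction. Under 1 kb, islands with a peak had the lower ratio, 1.20 (1.15 to 1.27) against 1.52 (1.47 to 1.58). At 1 to 2 kb they had 1.21 against 1.27, at 2 to 5 kb 1.34 against 1.26, at 5 to 10 kb 1.67 (1.64 to 1.69) against 1.52 (1.49 to 1.54), and at 10 kb and over 1.85 against 1.80. Only in islands under 2 kb was the ratio thus lower with a peak, and in the wider ones it was higher.

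The control reads moved with the peaks as well. Per kb, the H3 control had a median of 81.3 reads in islands with a peak and 75.0 in islands without one. Under 1 kb the values were 120 with and 93.8 without, at 2 to 5 kb 82.5 and 73.2, and at 10 kb and over 74.8 and 71.3. The ChIP reads per kb were higher with a peak by a factor of 1.01 under 1 kb, 1.18 at 1 to 2 kb, 1.21 at 2 to 5 kb, 1.18 at 5 to 10 kb and 1.08 at 10 kb and over. The part of the control in the turned ratio of narrow islands was not tested.

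**Figure D4:**
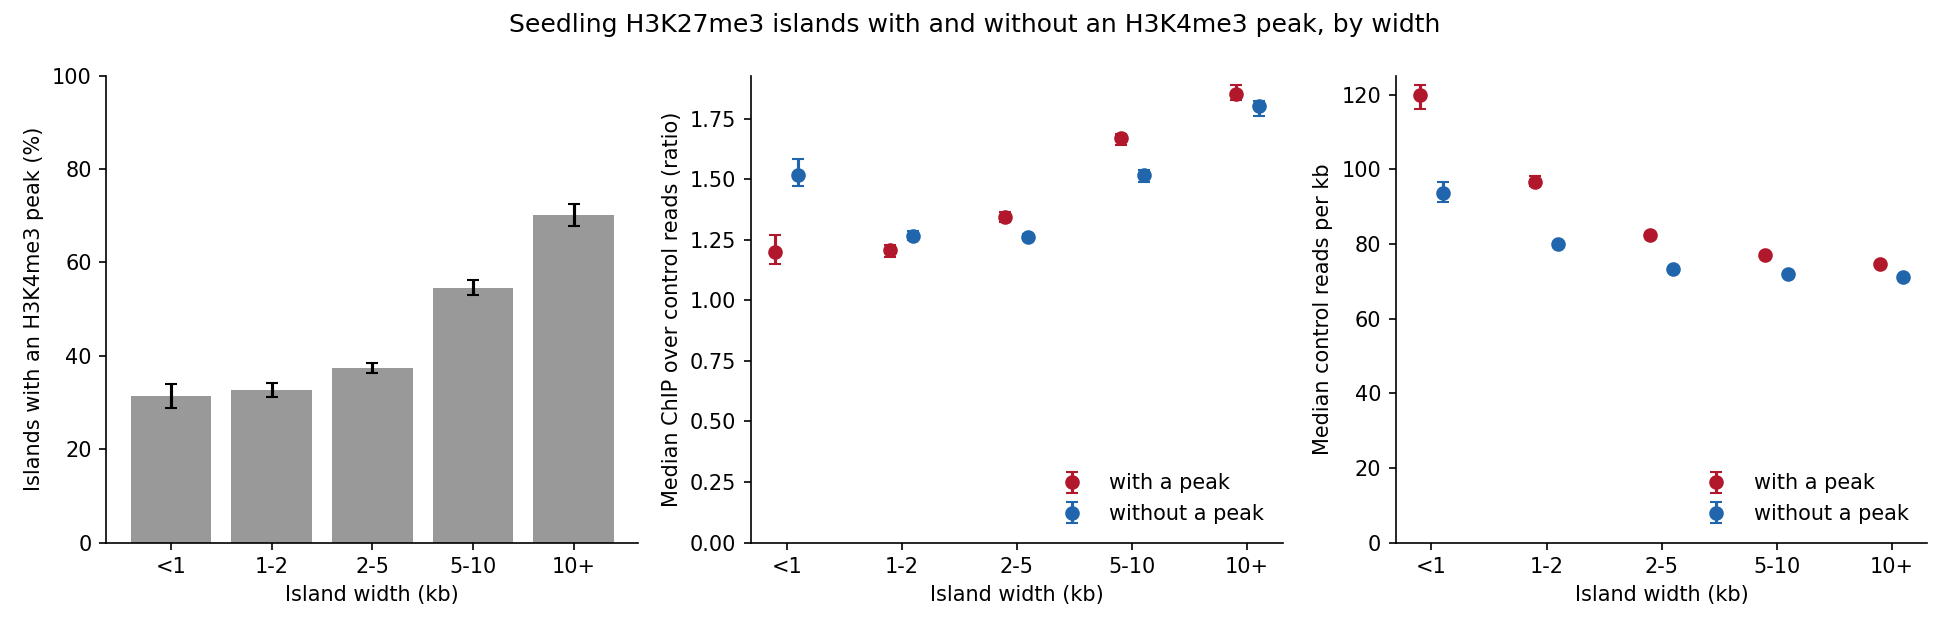
Seedling H3K27me3 islands in 5 width classes (x axes, kb): percent with an H3K4me3 peak (bars, with 95% Wilson intervals), median ratio of ChIP to control reads and median control reads per kb, with and without a peak (points, with 95% order-statistic intervals). The ratio is lower with a peak under 2 kb and higher above, and control reads per kb are higher with a peak in all 5 classes.

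The ratio did not rise steadily with the strength of the peak. Islands with a peak were cut into 4 groups of equal size by their strongest peak. Their median ratios were 1.47 (1.43 to 1.50), 1.54, 1.54 and 1.39 (1.36 to 1.42) from weakest to strongest. Control reads per kb rose through these groups, with 77.2, 79.4, 81.6 and 88.8, and so did ChIP reads per kb, with 113, 121, 126 and 129. When the 50% of peaks with the higher scores alone were counted, the quotient of islands with over without such a peak was 0.988 (0.959 to 1.02). Islands with weaker peaks alone then counted as without a peak. Islands with no peak of any score had a median ratio of 1.34 (1.33 to 1.35), below all 4 groups. They were also narrower, with a median of 2600 bp against 3600 to 4200 bp in the groups. At 2 to 5 kb the groups had 1.33, 1.37, 1.40 and 1.29 (1.25 to 1.33), against 1.26 (1.25 to 1.27) without a peak. The intervals of the strongest group and of islands without a peak thus overlapped there. At 5 to 10 kb the groups had 1.60, 1.70, 1.72 and 1.64, against 1.52 without a peak.

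Seedling peaks inside islands were looked up in the embryo lists. An embryo H3K27me3 island lay at 94.9% of them in the cotyledon-stage list, and at 86.2%, 86.0% and 89.9% in those of early, mid- and late maturation. At 80.8% an island was present in all 4 lists. For outside peaks the same shares were 6.59%, 3.00%, 1.90% and 5.08%. Border peaks lay between, with 77.9%, 59.4%, 57.3% and 67.8%.

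H3K4me3 at the inside places was found less regularly. An embryo H3K4me3 peak overlapped 48.8% of the inside peaks in cotyledon-stage embryos, then 55.7%, 74.9% and 48.0% in early, mid- and late maturation. For outside peaks the shares were 81.4%, 84.4%, 84.8% and 76.4%. Both embryo marks lay at 65.4% of the inside peaks in mid-maturation and 42.4% in late maturation. Of the 6329 inside peaks, 1749 (27.6%) met both marks in all 4 embryo stages, against 23.4% of border and 0.436% of outside peaks. No embryo H3K4me3 peak at all was met by 1254 (19.8%) of the inside peaks, 14.4% of the border peaks and 9.70% of the outside peaks.

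The presence of H3K4me3 in embryos went with the score of the seedling peak. Inside peaks with H3K4me3 in all 4 embryo stages had a median score of 34.0 and a median width of 762 bp, and those with none had 6.48 and 231 bp. Among peaks of like score the places differed little or turned. In the weakest of the 10 score groups, 4.45% of inside and 6.19% of outside peaks had H3K4me3 in all 4 embryo stages. In group 3 the shares were 26.0% and 25.8%, in group 4 57.5% (54.5 to 60.5) and 49.7% (48.0 to 51.4), and in group 5 81.2% (78.0 to 84.0) and 71.4% (69.9 to 72.8).

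**Figure D5:**
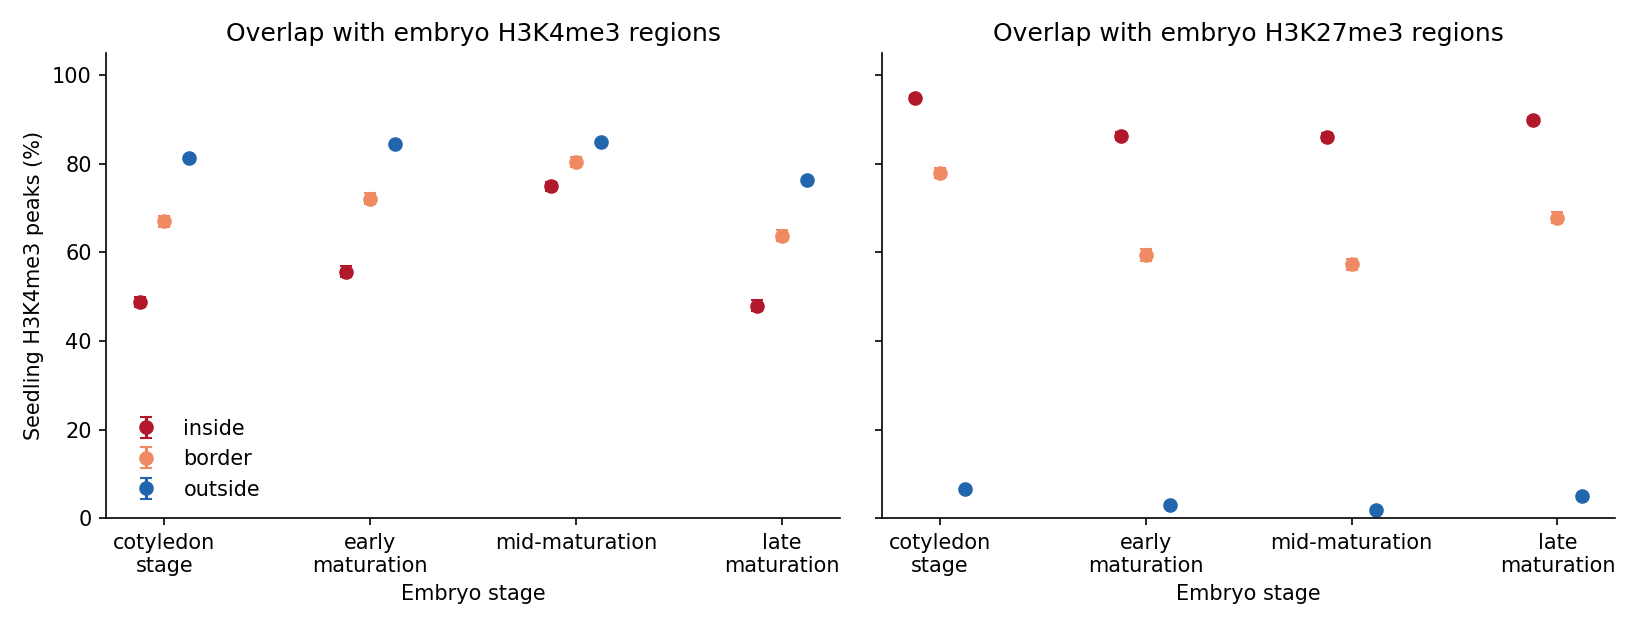
Percent of seedling H3K4me3 peaks (y axis, with 95% Wilson intervals) inside, at the border of and outside seedling H3K27me3 islands that overlap an H3K4me3 peak (left) or an H3K27me3 island (right) of each embryo stage (x axis). Inside peaks range from 48.0% to 74.9% for H3K4me3 and from 86.0% to 94.9% for H3K27me3.

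The islands were looked up in the embryo lists in the same way. Of the islands with a seedling peak, 86.2% overlapped an H3K4me3 peak at mid-maturation and 66.2% at the cotyledon stage. Of the islands without one, 9.72% and 4.61% did, and 85.4% overlapped no H3K4me3 peak at any embryo stage, against 10.3% of the islands with one. The islands with and without a peak were near each other in H3K27me3, with 91.1% and 92.4% overlapping an island at the cotyledon stage and 78.3% and 75.7% at mid-maturation.

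Single regions show the range, with positions counted from 1. The island with the most peaks, 12, lay on chromosome 8 from 44861601 to 44905200, was 43600 bp wide and had 8073 ChIP and 3015 control reads, a ratio of 2.68. The next, with 9 peaks, lay on chromosome 9 from 45125801 to 45157600, with a ratio of 1.78. An island of only 5600 bp on chromosome 17, from 13104201 to 13109800, also held 9 peaks, with 598 ChIP and 422 control reads. The first pair met both marks in all 4 embryo stages, while the last met H3K4me3 in 2 and H3K27me3 in 1. A wide island meets a region more easily, since 1 bp of overlap was enough.

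The widest islands without a peak both lay on chromosome 2. One spanned 14207401 to 14256000 (48600 bp, ratio 1.51) and the other 11719401 to 11760000 (40600 bp, ratio 1.61). Neither overlapped an H3K4me3 peak in any embryo stage, and both overlapped an H3K27me3 island in all 4. The next, on chromosome 16 from 3440201 to 3479000 with a ratio of 2.15, met H3K4me3 in 1 embryo stage.

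The strongest inside peak lay on chromosome 10 from 47015369 to 47016279, with a score of 163, 3521 bp from the nearest end of an island of 13400 bp with a ratio of 1.78. The second, on chromosome 7 from 39513765 to 39514724, had a score of 154 in an island of 5400 bp with a ratio of 1.13. Both met both marks in all 4 embryo stages. The third, on chromosome 4 from 49001732 to 49002696 with a score of 145, met H3K4me3 in 4 and H3K27me3 in 1. All were 911 to 965 bp wide, over 2 times the inside median.

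The 3 inside peaks farthest from an island end scored 5.54, 7.02 and 29.6, against a median of 11.8 for all inside peaks. A peak of 124 bp with a score of 5.54, on chromosome 18 from 58536060 to 58536183, lay 27859 bp from the end of the widest kept island, which spanned 76800 bp and held 7 peaks. A second peak of that island, of 129 bp, had a score of 7.02. The third, on chromosome 12 from 37594724 to 37595628, was 905 bp wide with a score of 29.6 in an island of 51000 bp, and it alone of these met H3K4me3 in all 4 embryo stages.

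Among border peaks the highest score, 193, belonged to a peak of 1524 bp on chromosome 6 from 2426562 to 2428085, which ended 116 bp before an island of 1800 bp. The next, with 188, lay on chromosome 15 from 11369013 to 11370301, exactly 500 bp from an island of 3600 bp and thus at the limit of the class. The third, with 187, lay on chromosome 18 from 12573360 to 12574418 and had 1018 of its 1059 bp within an island of 9800 bp. All of them met H3K4me3 in all 4 embryo stages. The outside peaks of highest score, 209 and 205 on chromosomes 14 and 17 and 205 on chromosome 14, lay 8984, 35174 and 21132 bp from an island.

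The highest ratios of ChIP to control reads, among islands with at least 20 control reads, belonged to narrow islands. Without a peak the highest was 10.6 on chromosome 2 from 40037801 to 40038400 (286 ChIP and 27 control reads). It was followed by 9.48 on chromosome 4 (start 4307401, end 4308000) and 8.84 on chromosome 8 (start 3956001, end 3956600), each 600 bp wide like the first. With a peak the highest was 5.75 on chromosome 14 from 4161401 to 4162000, also 600 bp wide, with 276 ChIP and 48 control reads. All 4 overlapped an H3K4me3 peak in 1 or more embryo stages, the last of them in all 4. With control reads this few, each ratio carries a wide counting error.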

How the data were processed

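The submitters' processing notes name Bowtie 0.12.7, SAMtools 0.1.19, MACS2 and SICER 1.1, with no genome build. Per the labels, chromatin was sheared to 100 to 500 bp, and 1, 10 and 3 µg of the H3K4me3, H3K27me3 and H3 antibodies were used. The authors deposited 1 score per H3K4me3 peak. For each H3K27me3 island (window 200 bp, gap 600 bp per the list names) the authors deposited read counts of ChIP and H3 control, their scaled ratio as a fold, and a p-value with its false discovery rate. Mid-maturation lists were matched by their stage code.

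Each list serves 2 replicates, so no test was made and depth per library was not analysed here. Classes, medians with order-statistic intervals, Wilson shares and coverage in bins of 100 bp were computed in Python 3.11.15 with pandas 2.3.3 and scipy 1.17.1, checked on made lists. An overlap is at least 1 bp. In the profile, outer bins stop midway to the next island and inner bins at the island centre. Regions named singly are the 3 highest by number of peaks, width without a peak, score per class, depth inside and ratio (20 control reads or more). Members, limits and rules were chosen with earlier results of these data known. Alternatives changed the islands or peaks kept, the border, the overlap and the island widths. RefSeq's gene table, of an assembly that differs from the lists, was not used.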

Additional observations from a re-analysis of the deposited data

How the results depend on the processing

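No paired analysis was possible because both replicates share 1 list, and leaving out each replicate was not run for the same reason. Of 89 alternative values, 42 stayed within the counting interval, 44 moved past it and 3 changed direction, judged by the value without its interval. The cause was not tested except where the setting itself sets it.

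With the lists as deposited, border peaks were 10.8%, outside peaks 77.1% and the outside distance 14317 bp, and with a false discovery rate of at most 0.05, 10.6%, 77.4% and 14456 bp. With the lowest 10% of islands dropped they were 9.25%, 79.0% and 15613 bp.

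With peaks of at least 200 bp, inside peaks were 10.6% and outside peaks 79.3%, islands with a peak 39.1%, and inside over outside width 0.521. With the 50% of peaks of higher score, the values were 2.01% inside, 5.81% border, 92.2% outside and 9.72% of islands with a peak. They were 0.987 for peak width, 1.13 for island width and 15333 bp. The ratio with over without a peak was 0.988 (0.959 to 1.02), an interval that includes 1. Islands with weaker peaks alone counted there as without a peak.

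A border of 250 bp gave 14.0% inside, 7.50% border and 78.5% outside, one of 1000 bp 8.91%, 14.9% and 76.1%, and the peak midpoint 15.7%, 5.68% and 78.6%, with 0.549 for peak width. By construction a wider border takes peaks from the other classes. With an overlap of 50% of the peak, 41.5% of islands had a peak. With the peak wholly within, 35.2% had one, with 1.19 for the ratio and 1.69 for island width.

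By island width, the ratio with over without a peak turned to 0.789 under 1 kb and 0.954 at 1 to 2 kb, and was 1.07 at 2 to 5 kb and 1.03 at 10 kb and over. Leaving out scaffolds moved none of the 3 shares past its interval.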
